A study of Rattus norvegicus with 47 samples.

Results

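The genes described here encode 39 plasma proteins of the complement and coagulation systems that hepatocytes secrete. The list holds 19 complement genes, 18 coagulation genes and the plasma glycoproteins Vtn and Ahsg, which were counted apart. A gene was used where the array's probe-to-gene table pairs a probe set with that symbol alone, and 1 probe set per gene was kept, the one with the highest mean in frozen or in formalin-fixed, paraffin-embedded (FFPE) tissue. This gave 33 genes of the 14217 measured, namely 17 complement genes, 14 coagulation genes, Vtn and Ahsg. F7, F11 and F13b had no such probe set, and Kng1, C2 and Cfb were held only by probe sets shared with other genes, so these 6 were not analysed here.

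The samples were livers of male Wistar rats, in which N-nitrosomorpholine, a nitrosamine that starts tumours, was given once (250 mg/kg) at an age of 4 weeks. After 3 weeks of recovery all rats drank phenobarbital, a tumour promoter, at a daily 50 mg/kg for at most 17 months. Frozen tissue gave 7 arrays of surrounding liver from 5 rats, 5 of nodules from 3 rats, 6 of adenomas from 2 rats, 4 of carcinomas from 3 rats and 4 of carcinomas whose label names a beta-catenin mutation, from 3 rats. FFPE tissue, cut out by laser microdissection, gave 4 arrays of surrounding liver from 4 rats, 9 of foci from 3 rats and 5 of adenomas from 3 rats. Surrounding liver came from the same treated rats as the lesions, so every comparison is between tissues that share both agents, and lesions of 1 rat are not independent animals. The study asked how the lesion types differ from each other and from surrounding liver.

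Complement is a cascade of plasma proteases. C1r and C1s start the classical pathway, mannose-binding lectins with Masp1 and Masp2 start the lectin pathway, and both converge on C3. Cleavage of C5 then allows C6, C7, C8 and C9 to assemble into the membrane attack complex, while C4b-binding protein and factor I break the cascade off. Coagulation runs through vitamin K dependent proteases such as factors IX and X to thrombin and fibrin, is held back by antithrombin, heparin cofactor II and proteins C and S, and is undone by plasmin. The liver parenchyma is the main source of most of these proteins, and their genes are known targets of the hepatocyte factors HNF1, HNF4 and C/EBP and, in the acute-phase response, of STAT3 and NF-kB.

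Of the measured genes, 25 had a promoter in the RefSeq table for the rat assembly GRCr8 (250 bases before to 50 after the start of the gene). The 5 printed here belong to C6, C5, C4bpb, F9 and C3. C6, C5 and C4bpb were among the genes with the largest changes described below. F9 held the most motif matches of these 5, and C3 passed the test nowhere. All 5 were chosen after the values were seen. Capitals mark the matches to the motifs searched, on either strand. The windows are chr2:55573383-55573682 (plus strand) for C6, chr3:38759419-38759718 (minus strand) for C5, chr13:44683732-44684031 (minus strand) for C4bpb, chrX:143388392-143388691 (plus strand) for F9 and chr9:2201290-2201589 (minus strand) for C3.
C6: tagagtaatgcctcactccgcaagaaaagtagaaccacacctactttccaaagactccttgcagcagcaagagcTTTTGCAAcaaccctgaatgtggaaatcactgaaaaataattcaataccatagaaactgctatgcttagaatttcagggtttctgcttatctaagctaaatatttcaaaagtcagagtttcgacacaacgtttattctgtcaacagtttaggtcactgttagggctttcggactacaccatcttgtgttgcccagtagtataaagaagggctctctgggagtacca
C5: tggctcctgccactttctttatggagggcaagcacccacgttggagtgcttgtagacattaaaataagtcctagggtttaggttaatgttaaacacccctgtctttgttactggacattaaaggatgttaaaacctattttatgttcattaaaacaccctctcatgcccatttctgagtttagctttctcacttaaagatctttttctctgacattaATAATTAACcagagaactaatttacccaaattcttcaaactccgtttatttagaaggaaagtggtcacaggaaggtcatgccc
C4bpb: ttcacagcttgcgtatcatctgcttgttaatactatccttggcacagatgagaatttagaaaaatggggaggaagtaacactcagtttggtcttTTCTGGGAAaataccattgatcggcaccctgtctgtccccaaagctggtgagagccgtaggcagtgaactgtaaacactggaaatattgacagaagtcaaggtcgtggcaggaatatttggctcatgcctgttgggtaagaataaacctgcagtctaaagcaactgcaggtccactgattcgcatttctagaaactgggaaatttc
F9: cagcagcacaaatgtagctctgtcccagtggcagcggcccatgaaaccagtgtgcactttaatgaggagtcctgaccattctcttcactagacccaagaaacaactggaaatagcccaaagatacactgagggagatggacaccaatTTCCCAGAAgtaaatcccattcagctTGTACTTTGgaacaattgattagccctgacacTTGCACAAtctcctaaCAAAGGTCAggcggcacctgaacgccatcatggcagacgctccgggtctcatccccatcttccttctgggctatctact
C3: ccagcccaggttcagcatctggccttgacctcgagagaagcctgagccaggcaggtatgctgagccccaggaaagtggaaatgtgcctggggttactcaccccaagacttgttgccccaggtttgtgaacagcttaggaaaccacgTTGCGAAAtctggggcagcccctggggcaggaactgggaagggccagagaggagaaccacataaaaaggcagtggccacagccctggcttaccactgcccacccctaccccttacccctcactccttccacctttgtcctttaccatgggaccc
Positions are counted from the start of the gene. C6 held 1 C/EBP match at -176, C5 held 1 HNF1 match at -33, and C4bpb held 1 STAT3 match at -156. F9 held HNF4 matches at -77 and -29, a C/EBP match at -45 and a STAT3 match at -103, and C3 held 1 C/EBP match at -104.

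Among the 25 promoters, the C/EBP motif TTGCNNAA occurred in 10 (6 of 12 complement, 3 of 11 coagulation and that of Ahsg), against 10.6% of all 33469 promoters of this length. The HNF1 motif GTTAATNAT occurred in 3 (Plg, C5 and C4bpa; 0.75% of all), the STAT3 motif TTCNNNGAA in 5 (F9, Pros1, Vtn, C8a and C4bpb; 8.87% of all), the HNF4 motif CAAAGNNCA in F9 alone (6.08% of all) and the NF-kB consensus in F10 alone (4.18% of all). A match describes these letters and is not evidence of a bound factor.

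The deposited values are log2 probe set signals. Array medians lay between 5.49 and 5.59 in frozen and between 5.58 and 5.68 in FFPE tissue, and the number of arrays limits the precision. A change is the log2 difference between groups ± standard error from limma with the rat as a block, and called means an adjusted p (Benjamini-Hochberg, over all 14217 genes) under 0.05. The hepatocyte markers (Alb, Ttr and 8 others measured) averaged 13.18 to 13.50 per array in frozen and 12.94 to 13.38 in FFPE surrounding liver and are abundant in all groups. The label of 1 beta-catenin carcinoma names the mutation in only 1 of its fields, and 1 FFPE adenoma is called surrounding tissue in another field. Both were kept under their group label.

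In surrounding liver the genes were strongly expressed, with mean levels from 9.14 (C6) to 14.33 (C3) in frozen and from 9.52 (Masp1) to 13.75 (C3) in FFPE tissue. C3 lay close to the highest signal of a frozen array (14.95 to 15.13), where a probe set has little room to rise. The levels of different probe sets are not comparable with each other, so only differences between tissues are described below.

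Transcripts of the complement and coagulation systems were lower in most lesion groups, and none of the 33 genes was called higher in any comparison. In FFPE foci 9 genes were called lower (7 complement, 2 coagulation), where 1.36% of all genes were called lower and 1.81% higher. In FFPE adenomas 7 were called lower (5 and 2), against 0.872% of all genes lower and 1.29% higher. In frozen adenomas 26 were called lower (12 complement, 13 coagulation and Vtn), against 9.57% lower and 15.4% higher. In carcinomas 15 were called lower (8, 6 and Vtn), against 6.91% lower and 4.48% higher, and in beta-catenin carcinomas 21 (13 and 8), against 9.58% lower and 7.74% higher. The share called among these genes was thus above that of all genes in the same direction in each of the 5 groups. In these tissue samples, the microdissected FFPE ones included, fewer hepatocytes and less RNA per hepatocyte cannot be told apart.

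Nodules were the exception in the call but not in the sign. No gene was called in nodules by limma, where 0.0352% of all genes were called lower and 0.19% higher, and 4 of the 33 genes had an unadjusted p under 0.05 (C8a, Serpinf2, C6 and Serping1). Fitted changes were below 0 for 32 of the 33, from -1.02 ± 0.41 for C6 to 0.04 ± 0.14 for F12. In the FFPE groups the counts rested on single arrays and on the rat as a block. The count in foci fell to 3 without FFPE surrounding replicate 1, to 3 without surrounding replicate 4 and to 3 without the block. That in FFPE adenomas fell to 3 without surrounding replicate 1, 2 or 4 or adenoma replicate 2, to 4 without adenoma replicate 4 or 5, and to 1 without the block. That in carcinomas fell to 7 without carcinoma replicate 1.

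**Figure D1:**
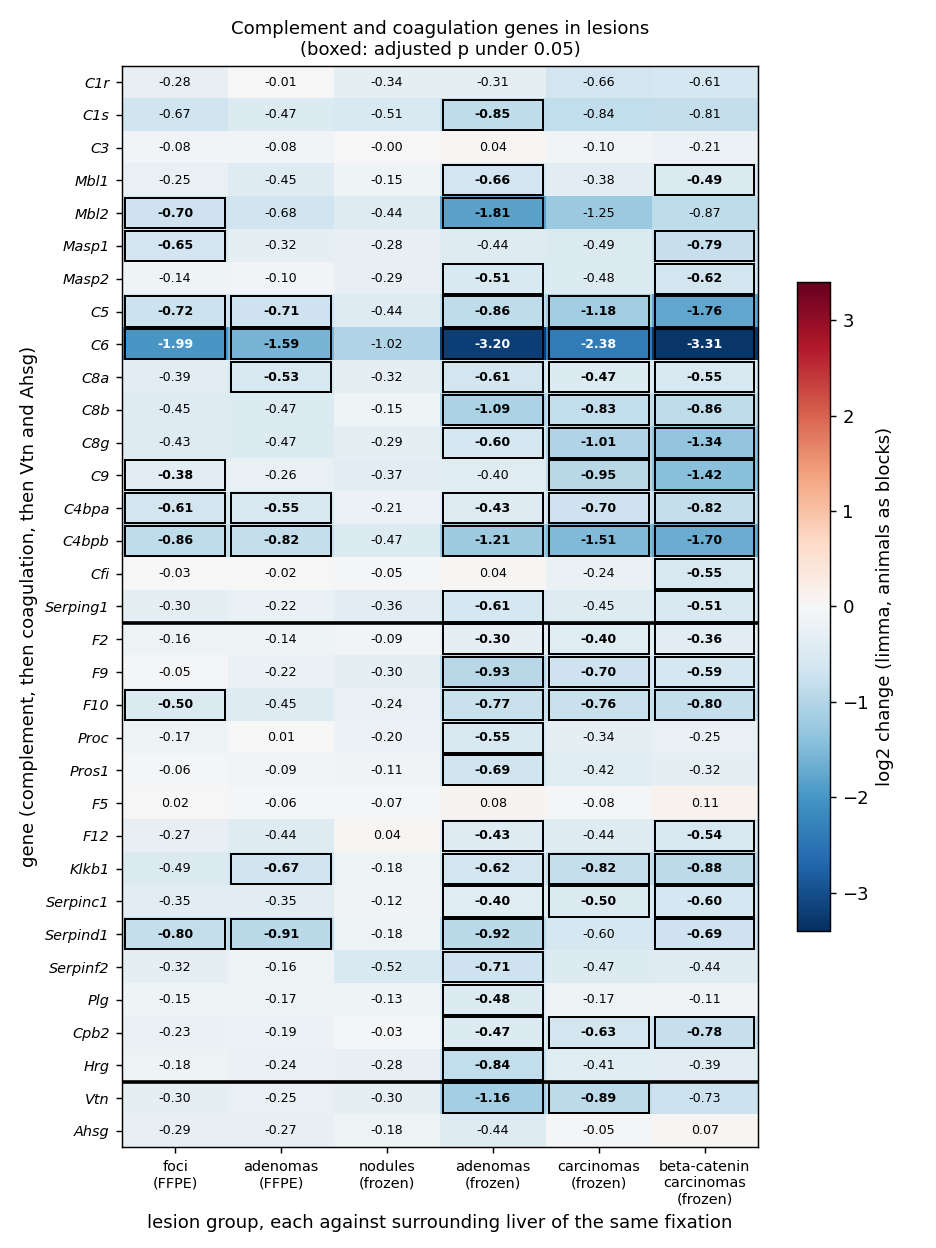
Log2 change of each of the 33 genes (rows: complement, coagulation, then Vtn and Ahsg) in 6 lesion groups (columns) against surrounding liver of the same fixation, with called cells boxed. The C6 row is the darkest, from -1.02 in nodules to -3.31 in beta-catenin carcinomas, and no cell with a rise is boxed.

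The terminal pathway forms the membrane attack complex. Of its 6 measured genes (C5, C6, C8a, C8b, C8g and C9), 3 were called lower in foci, 3 in FFPE adenomas, 5 in frozen adenomas and all 6 in carcinomas and in beta-catenin carcinomas. Their median change was -0.44 in foci, -0.50 in FFPE adenomas, -0.35 in nodules, -0.74 in frozen adenomas, -0.98 in carcinomas and -1.38 in beta-catenin carcinomas, beside medians over all genes between -0.02 and 0.02.

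C6, the protein that follows C5b in the attack complex, had the lowest fitted change of the 33 genes in each of the 6 comparisons with surrounding liver. In frozen surrounding liver its level lay between 8.19 and 9.78 with a median of 9.12. The 6 frozen adenomas lay between 4.47 and 7.96 with a median of 5.88, all below every surrounding array. The carcinomas had 6.86, 7.09, 6.52 and 6.30 and the beta-catenin carcinomas 5.75, 5.76, 4.79 and 6.02, so neither group reached the surrounding liver. The nodules, at 8.16, 8.03, 9.14, 8.09 and 8.64, overlapped it. C6 was 9.19-fold lower in frozen adenomas (-3.20 ± 0.40, adjusted p = 2.37e-05), 5.22-fold lower in carcinomas (-2.38 ± 0.43, adjusted p = 0.00137) and 9.93-fold lower in beta-catenin carcinomas (-3.31 ± 0.42, adjusted p = 2.96e-05). In nodules its change of -1.02 ± 0.41 did not pass (adjusted p = 0.289). Some lesions lay near or under the array medians given above, a range in which a probe set may no longer follow the transcript.

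In FFPE tissue C6 stood at 9.71, 10.22, 9.91 and 10.74 in surrounding liver. The 9 foci lay between 6.14 and 9.16 with a median of 8.53, and the adenomas at 8.20, 7.21, 9.10, 8.61 and 8.94. Every focus and adenoma was below every surrounding array. C6 was 3.96-fold lower in foci (-1.99 ± 0.27, adjusted p = 3.39e-05) and 3.01-fold lower in FFPE adenomas (-1.59 ± 0.31, adjusted p = 0.00299). Against the surrounding array of its own labelled control set, C6 was lower in 19 of 19 frozen and 14 of 14 FFPE lesions. The call in FFPE adenomas was lost without the rat as a block (adjusted p = 0.0521).

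C5, whose cleavage starts the terminal pathway and frees the anaphylatoxin C5a, was called lower in 5 of the 6 groups. In frozen surrounding liver it lay between 11.55 and 12.07 with a median of 11.83, and in nodules at 11.73, 11.75, 11.57, 11.30 and 11.48. The adenomas lay between 10.31 and 11.60 with a median of 10.98. The carcinomas had 10.76, 10.41, 9.75 and 10.77 and the beta-catenin carcinomas 11.04, 9.29, 9.18 and 10.26. Both carcinoma groups lay below every surrounding array, and the adenomas overlapped them at their upper end. The changes were -0.86 ± 0.23 in adenomas (adjusted p = 0.0103), -1.18 ± 0.25 in carcinomas (adjusted p = 0.00433) and -1.76 ± 0.24 in beta-catenin carcinomas (adjusted p = 5.85e-05).

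FFPE values of C5 overlapped between the tissues. Surrounding liver had 11.45, 10.62, 11.54 and 11.83, the foci lay between 10.38 and 11.02 with a median of 10.80, and the adenomas had 10.76, 10.33, 10.35, 10.02 and 10.99. Within rats the order was uniform, since each of the 14 FFPE lesions was below the surrounding array of its own control set. The changes were -0.72 ± 0.13 in foci (adjusted p = 0.000944) and -0.71 ± 0.14 in adenomas (adjusted p = 0.00551). The call in foci was lost in 2 of 24 alternatives, among them without the block, with adjusted p up to 0.184. That in adenomas was lost in 1 of 20 alternatives, with adjusted p up to 0.100.

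The subunits of C8 and C9, the proteins that enter the membrane, followed in the carcinomas. C9 stood between 13.05 and 13.59 in frozen surrounding liver, at 12.15, 12.53, 11.74 and 12.63 in carcinomas and at 12.61, 11.25, 11.24 and 12.49 in beta-catenin carcinomas. It changed by -0.95 ± 0.23 (adjusted p = 0.00988) and -1.42 ± 0.22 (adjusted p = 0.000181) there, and in frozen adenomas its change of -0.40 ± 0.21 did not pass (adjusted p = 0.177). C8g, the small lipocalin-like chain of C8, changed by -0.60 ± 0.21 in frozen adenomas, -1.01 ± 0.22 in carcinomas and -1.34 ± 0.21 in beta-catenin carcinomas (adjusted p = 0.0389, 0.0055 and 0.00024). C8b was lower in frozen adenomas (-1.09 ± 0.22, adjusted p = 0.0015), and C8a was called in the 3 frozen tumour groups and in FFPE adenomas (-0.53 ± 0.14, adjusted p = 0.0472). Both carcinoma groups lay below every surrounding array for C8a, C8g and C9, while C8b overlapped.

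**Figure D2:**
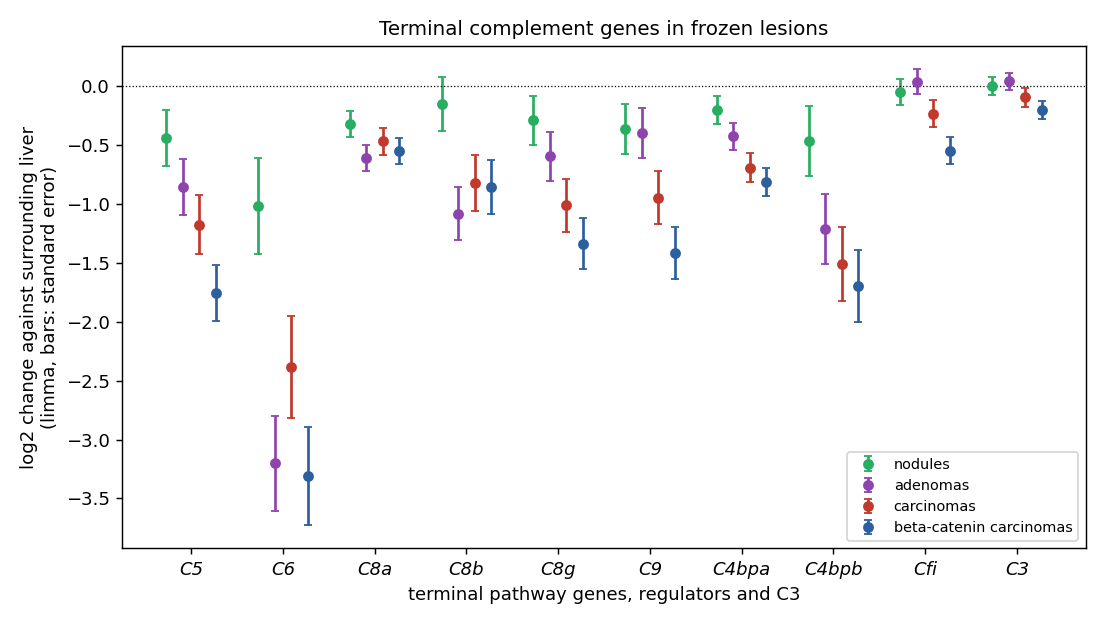
Log2 change against surrounding liver (y axis, points, with the standard error from limma as bars) of the terminal pathway genes, their regulators and C3 (x axis) in the 4 frozen lesion groups (colours). C6 reaches -3.31, C5 and C4bpb pass -1.5 in beta-catenin carcinomas, and C3 stays within -0.21 and 0.04.

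Among the regulators, the fall was uneven. C4bpb, the beta chain of C4b-binding protein, which ties this inhibitor of the classical pathway to protein S, stood between 11.93 and 12.18 in frozen surrounding liver. The nodules had 11.75, 11.71, 11.70, 11.54 and 11.68, the adenomas lay between 9.95 and 11.58 with a median of 11.08, the carcinomas had 10.61, 10.86, 9.40 and 10.73 and the beta-catenin carcinomas 10.83, 9.96, 9.71 and 10.62. All 4 lesion groups lay below every surrounding array. The changes were -1.21 ± 0.29 in adenomas (adjusted p = 0.00474), -1.51 ± 0.31 in carcinomas (adjusted p = 0.00384) and -1.70 ± 0.30 in beta-catenin carcinomas (adjusted p = 0.000631), and -0.47 ± 0.30 in nodules did not pass (adjusted p = 0.536).

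In FFPE tissue C4bpb stood at 11.50, 11.17, 11.55 and 11.90 in surrounding liver, between 9.56 and 11.30 with a median of 10.82 in foci, and at 10.75, 10.30, 10.99, 10.33 and 10.69 in adenomas. The adenomas lay below every surrounding array and the foci overlapped. The changes were -0.86 ± 0.20 in foci (adjusted p = 0.0135) and -0.82 ± 0.22 in adenomas (adjusted p = 0.0494). The call in foci was lost without surrounding replicate 1, 3 or 4 (adjusted p up to 0.105 over all alternatives). That in adenomas lay at the threshold and was lost in 14 of 20 alternatives, among them leaving out any 1 of the 4 surrounding arrays. C4bpa, the alpha chain of the same protein, was called lower in the same 5 groups as C4bpb, with changes of -0.61 and -0.55 in FFPE foci and adenomas and -0.43, -0.70 and -0.82 in frozen adenomas, carcinomas and beta-catenin carcinomas.

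Cfi, the protease that cuts C3b and C4b with such cofactors, was called in beta-catenin carcinomas only among the 6 comparisons (-0.55 ± 0.11, adjusted p = 0.00192). Its values there were 13.26, 12.65, 12.69 and 12.98, against 13.39 to 13.51 in surrounding liver. In frozen adenomas its change was 0.04 ± 0.11 (adjusted p = 0.844). The difference between beta-catenin carcinomas and other carcinomas, -0.31 ± 0.13, did not pass (adjusted p = 0.838). Serping1, the C1 inhibitor, which also restrains the contact system, was lower in frozen adenomas (-0.61 ± 0.15, adjusted p = 0.00545) and in beta-catenin carcinomas (-0.51 ± 0.15, adjusted p = 0.0281).

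The genes of the lectin pathway, the recognition proteins Mbl1 and Mbl2 and the proteases Masp1 and Masp2, were called mainly in frozen adenomas and beta-catenin carcinomas (3 of 4 genes in each), with 2 in foci. With the probe sets used, none was called by limma in carcinomas, nodules and FFPE adenomas, where 4, 0 and 2 of the 4 had an unadjusted p under 0.05. In a limma fit of every probe set, the other Mbl2 probe set was called in FFPE adenomas (-0.94 ± 0.22, adjusted p = 0.0219). One unused Masp2 probe set was called in carcinomas (-0.48 ± 0.15, adjusted p = 0.0440). No further probe set of Mbl2, Masp1 or Masp2 was called in these 3 groups. In the same fit the probe sets used for Mbl2 and Masp1 were not called in foci (adjusted p = 0.0525 and 0.0514). The other Mbl2 probe set was called there (-0.78 ± 0.20, adjusted p = 0.0284). Mbl2, mannose-binding lectin C, lay between 11.65 and 12.23 with a median of 11.82 in frozen surrounding liver and between 7.99 and 11.04 with a median of 10.44 in frozen adenomas, without overlap. It was 3.50-fold lower there (-1.81 ± 0.41, adjusted p = 0.00295), and its other probe set gave -1.96 ± 0.38. The 4 carcinomas, at 11.31, 9.72, 10.64 and 10.63, also lay below the surrounding arrays, but the change of -1.25 ± 0.44 did not pass (adjusted p = 0.0688), nor did -0.87 ± 0.42 in beta-catenin carcinomas (adjusted p = 0.172). In FFPE foci Mbl2 changed by -0.70 ± 0.20 (adjusted p = 0.0483). Mbl1, mannose-binding lectin A, was lower in frozen adenomas (-0.66 ± 0.16, adjusted p = 0.00438) and beta-catenin carcinomas (-0.49 ± 0.16, adjusted p = 0.0426).

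Masp1 and Masp2, the proteases bound to these lectins, were read by 3 probe sets each, which did not give like changes. The Masp1 probe set used in frozen tissue changed by -0.79 ± 0.17 in beta-catenin carcinomas (adjusted p = 0.00233) and -0.44 ± 0.16 in adenomas (adjusted p = 0.0508), while another changed by -0.23 and -1.05. The third changed by 0.12 and -0.26. In foci a different Masp1 probe set was the highest and changed by -0.65 ± 0.18 (adjusted p = 0.044). The other Masp1 probe sets changed by -0.45 and -0.30 in foci and were not called. Masp2 was called in frozen adenomas (-0.51 ± 0.15, adjusted p = 0.0153) and beta-catenin carcinomas (-0.62 ± 0.15, adjusted p = 0.00656). Its other probe sets changed by -0.54 and -0.05 in frozen adenomas and by -0.48 and -0.29 in beta-catenin carcinomas. None of these was called in the fit of every probe set.

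Of the early classical proteases, C1s was called in frozen adenomas (-0.85 ± 0.28, adjusted p = 0.0302), and C1r in none of the 6 groups, with -0.66 ± 0.23 in carcinomas (adjusted p = 0.0638). C3, on which all 3 activation pathways converge, was called in none of the comparisons. It lay between 14.24 and 14.41 in frozen surrounding liver, between 14.26 and 14.46 in adenomas, at 14.29, 14.32, 14.09 and 14.29 in carcinomas and at 13.99, 14.26, 13.99 and 14.28 in beta-catenin carcinomas. The groups overlapped, and the changes ran from 0.04 ± 0.07 in frozen adenomas to -0.21 ± 0.08 in beta-catenin carcinomas (adjusted p = 0.753 and 0.065). How far its nearness to the highest array signals limited these values was not tested.

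**Figure D3:**
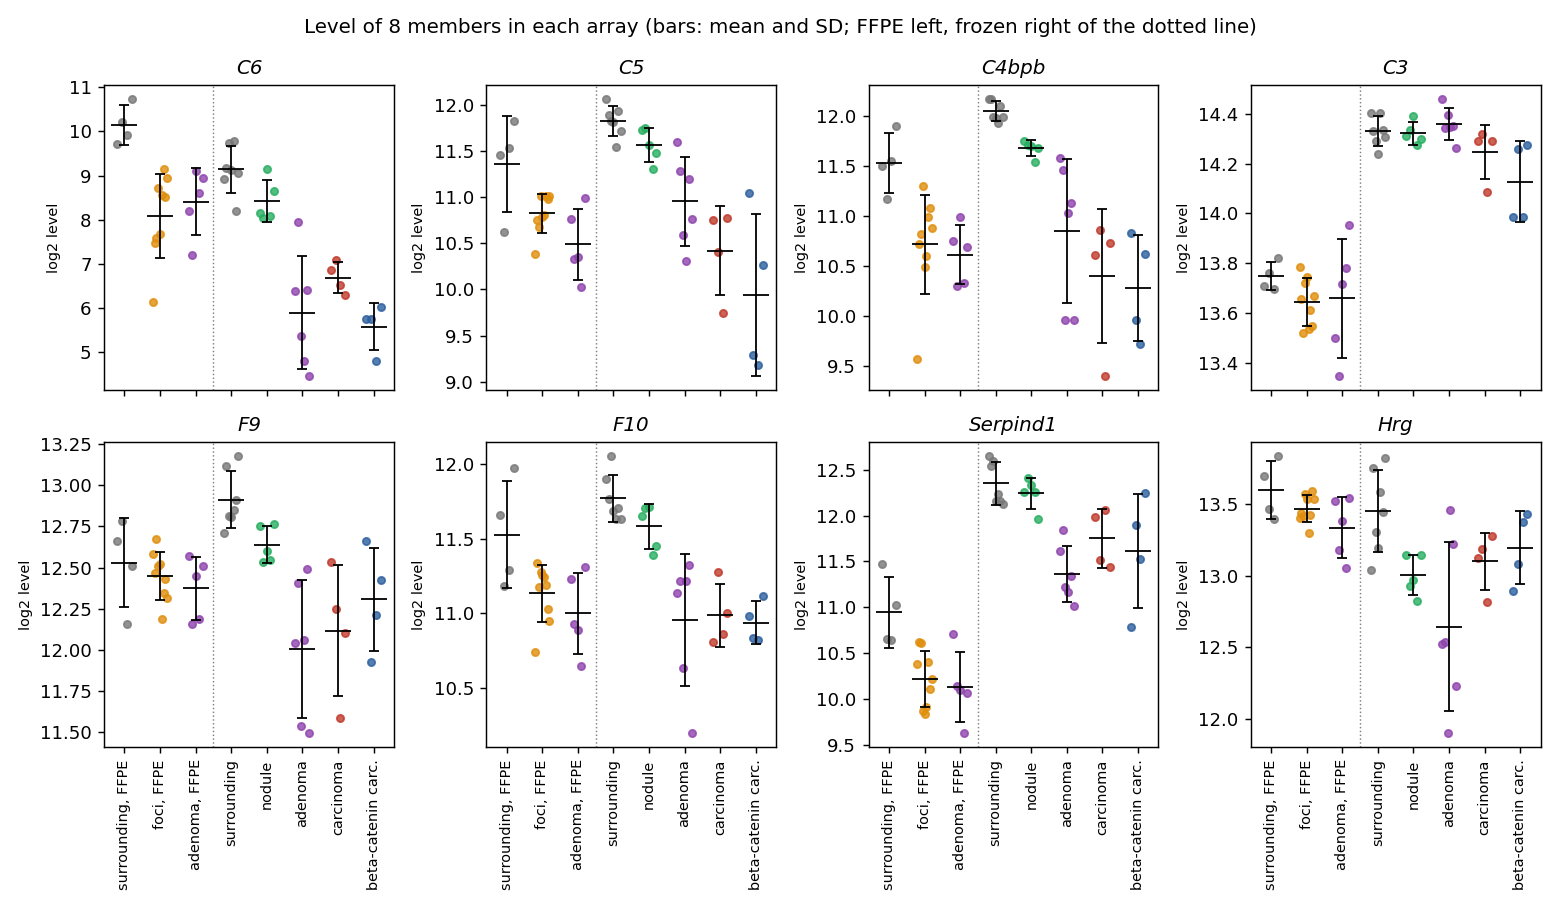
Log2 level of 8 genes (panels) in each array (points), grouped on the x axis with FFPE groups left and frozen groups right of the dotted line, with the mean and SD as bars. C6 drops from 8.19 or more in frozen surrounding liver to 7.96 or less in frozen adenomas and both carcinoma groups. The C3 panel spans about the same range in frozen surrounding liver and frozen adenomas. In FFPE tissue C3 spreads wider in adenomas (13.35 to 13.95) than in surrounding liver (13.70 to 13.82).

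The coagulation genes had smaller median changes than complement in FFPE lesions and in carcinomas, and a similar one in frozen adenomas. All 5 measured vitamin K dependent genes (F2, F9, F10, Proc and Pros1) were called lower in frozen adenomas, 3 in each carcinoma group and 1 in foci. By limma none was called in FFPE adenomas and nodules, where 1 and 0 of the 5 had an unadjusted p under 0.05. F9, the factor missing in haemophilia B, lay between 12.71 and 13.18 with a median of 12.85 in frozen surrounding liver and between 11.49 and 12.49 with a median of 12.05 in adenomas. The carcinomas had 12.54, 12.25, 11.59 and 12.10 and the beta-catenin carcinomas 12.66, 11.93, 12.21 and 12.42. These 3 groups lay below every surrounding array, while the nodules, at 12.75, 12.53, 12.60, 12.55 and 12.76, overlapped. F9 was 1.91-fold lower in adenomas (-0.93 ± 0.18, adjusted p = 0.000863), 1.63-fold lower in carcinomas (adjusted p = 0.0208) and also lower in beta-catenin carcinomas (-0.59 ± 0.18, adjusted p = 0.033). Its call in carcinomas was lost without surrounding replicate 5, carcinoma replicate 3 or carcinoma replicate 4, with adjusted p up to 0.129.

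In FFPE tissue F9 did not pass. Surrounding liver had 12.66, 12.78, 12.16 and 12.51, the foci lay between 12.19 and 12.68 with a median of 12.47, and the adenomas had 12.57, 12.16, 12.45, 12.18 and 12.51. The groups overlapped throughout, with changes of -0.05 ± 0.11 in foci and -0.22 ± 0.12 in adenomas (adjusted p = 0.904 and 0.523). The change of adenomas in frozen minus that in FFPE tissue was -0.71 ± 0.23 for F9 (adjusted p = 0.193), so a difference between the fixations was not shown.

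F10, which cuts prothrombin, was the vitamin K dependent gene called in the most groups. It lay between 11.63 and 12.06 with a median of 11.71 in frozen surrounding liver, between 10.20 and 11.32 with a median of 11.18 in adenomas, at 10.81, 11.28, 10.86 and 11.00 in carcinomas and at 10.98, 10.83, 10.82 and 11.12 in beta-catenin carcinomas. No tumour of these 3 groups reached the surrounding liver. The changes were -0.77 ± 0.17, -0.76 ± 0.18 and -0.80 ± 0.17 (adjusted p = 0.00239, 0.00948 and 0.00308), and in FFPE foci -0.50 ± 0.14 (adjusted p = 0.0454). In FFPE surrounding liver F10 stood at 11.66, 11.19, 11.29 and 11.97 and in foci between 10.74 and 11.34, with overlap. The call in foci was lost in 15 of 24 alternatives, among them leaving out surrounding replicate 1, 2 or 4 or focus replicate 1, 3, 7, 8 or 9, with adjusted p up to 0.350. That in carcinomas was lost without carcinoma replicate 1 (adjusted p = 0.102).

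F2, prothrombin, fell by a small amount in the 3 frozen tumour groups (-0.30 ± 0.09, -0.40 ± 0.09 and -0.36 ± 0.09), although the calls in both carcinoma groups were lost with the control set as a block (adjusted p = 0.0546 and 0.0734). Proc and Pros1, the anticoagulant proteins C and S, were called in frozen adenomas (-0.55 ± 0.10 and -0.69 ± 0.14, adjusted p = 0.000701 and 0.00129), and the difference between carcinomas and adenomas did not pass for either. F5, the cofactor of factor Xa, was called nowhere. Its changes ran from -0.08 ± 0.11 in carcinomas to 0.11 ± 0.11 in beta-catenin carcinomas, and it was lower than in its own control set in 10 of 19 frozen and 8 of 14 FFPE lesions.

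Of the contact system, Klkb1, plasma prekallikrein, lay between 11.41 and 12.31 with a median of 11.99 in frozen surrounding liver, between 10.79 and 11.79 with a median of 11.27 in adenomas, at 11.15, 10.98, 10.53 and 11.29 in carcinomas and at 11.80, 10.51, 10.80 and 11.14 in beta-catenin carcinomas. The carcinomas lay below every surrounding array and the other 2 groups overlapped their lower end. The changes were -0.62 ± 0.17, -0.82 ± 0.18 and -0.88 ± 0.18 (adjusted p = 0.0117, 0.00652 and 0.00176), that in carcinomas being lost without carcinoma replicate 1 (adjusted p = 0.0750). In FFPE tissue Klkb1 had 10.74, 9.69, 10.25 and 10.90 in surrounding liver and 10.31, 9.80, 8.99, 9.25 and 10.13 in adenomas, with overlap and a change of -0.67 ± 0.16 (adjusted p = 0.025). That call was lost in 10 of 20 alternatives, among them leaving out surrounding replicate 1, 2 or 4 or adenoma replicate 2 or 5. F12, which encodes factor XII of the same system, was called in frozen adenomas (-0.43 ± 0.14, adjusted p = 0.0312) and beta-catenin carcinomas (-0.54 ± 0.15, adjusted p = 0.0139).

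The inhibitors fell most clearly through Serpind1, heparin cofactor II, a thrombin inhibitor. In FFPE tissue it stood at 11.47, 10.66, 10.64 and 11.02 in surrounding liver, between 9.84 and 10.62 with a median of 10.22 in foci and at 10.71, 10.14, 10.10, 9.63 and 10.07 in adenomas. The foci lay below every surrounding array, and 1 adenoma overlapped. Serpind1 was 1.74-fold lower in foci (-0.80 ± 0.14, adjusted p = 0.000743) and 1.89-fold lower in FFPE adenomas (-0.91 ± 0.16, adjusted p = 0.000686), although the latter call was lost without the block (adjusted p = 0.0717).

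In frozen surrounding liver Serpind1 lay between 12.13 and 12.65 with a median of 12.24, in adenomas between 11.02 and 11.84 with a median of 11.28, in carcinomas at 11.99, 11.52, 12.06 and 11.44 and in beta-catenin carcinomas at 10.78, 11.89, 11.53 and 12.24. Adenomas and carcinomas lay below every surrounding array. The change was -0.92 ± 0.21 in adenomas (adjusted p = 0.00358) and -0.69 ± 0.22 in beta-catenin carcinomas (adjusted p = 0.033), and -0.60 ± 0.23 in carcinomas did not pass (adjusted p = 0.0984). Serpinc1, antithrombin, fell by less but in all 3 frozen tumour groups (-0.40 ± 0.08, -0.50 ± 0.09 and -0.60 ± 0.09, adjusted p = 0.00151, 0.0013 and 8.48e-05). Serpinf2, the plasmin inhibitor, was called in frozen adenomas (-0.71 ± 0.20, adjusted p = 0.0128). With the control set as a block that call was lost (adjusted p = 0.108) and beta-catenin carcinomas gave one (-0.72, adjusted p = 0.0439).

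Of the fibrinolysis genes, Cpb2, the carboxypeptidase that protects fibrin from plasmin, lay between 12.32 and 12.68 with a median of 12.59 in frozen surrounding liver and at 12.18, 11.13, 11.82 and 12.11 in beta-catenin carcinomas. Its change there was -0.78 ± 0.14 (adjusted p = 0.000854), without overlap, and it changed by -0.63 ± 0.15 in carcinomas (adjusted p = 0.00894) and -0.47 ± 0.14 in adenomas (adjusted p = 0.0182). Plg, plasminogen, was called in frozen adenomas (-0.48 ± 0.10, adjusted p = 0.00192). Its change in carcinomas was higher than in adenomas by 0.30, which did not pass (adjusted p = 0.169).

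Hrg, the histidine-rich glycoprotein that binds heparin and plasminogen, lay between 13.04 and 13.82 with a median of 13.45 in frozen surrounding liver and between 11.90 and 13.46 with a median of 12.53 in adenomas, where 2 of 6 overlapped. Its change of -0.84 ± 0.19 was called (adjusted p = 0.00286), and those in carcinomas and beta-catenin carcinomas, -0.41 ± 0.20 and -0.39 ± 0.19, were not (adjusted p = 0.208 and 0.186). Vtn, vitronectin, which binds terminal complement complexes as well as clotting inhibitors, was lower in frozen adenomas (-1.16 ± 0.27, adjusted p = 0.00327) and carcinomas (-0.89 ± 0.28, adjusted p = 0.0467). Ahsg, the fetuin that keeps calcium phosphate soluble, was called nowhere, with changes from -0.44 ± 0.16 in frozen adenomas to 0.07 ± 0.17 in beta-catenin carcinomas.

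Across the 6 comparisons with surrounding liver, 4 genes were called in 5 (C5, C6, C4bpa and C4bpb, all of them complement), 4 in 4, 7 in 3, 7 in 2, 7 in 1 and 4 in none (C3, C1r, F5 and Ahsg). No gene was called in all 6, since nodules gave no call. The comparisons of 1 fixation share their surrounding arrays and so are not independent of each other. How many of all genes were called in as many comparisons was not counted, so nothing is read from the repeats.

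Complement had the lower median change in each of the 6 comparisons, by a margin that varied. The medians of complement and coagulation genes were -0.43 and -0.21 in foci, -0.47 and -0.21 in FFPE adenomas, -0.32 and -0.16 in nodules, -0.61 and -0.59 in frozen adenomas, -0.70 and -0.45 in carcinomas and -0.81 and -0.49 in beta-catenin carcinomas. The gap was therefore -0.02 in frozen adenomas and between -0.16 and -0.32 in the other 5 groups. In frozen adenomas the sign of the gap was not stable and ran from -0.06 to 0.04 over the alternatives, while in the other 5 it stayed below 0 in all of them. The members were chosen with results known, so the gap is a description without a test.

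Lesion by lesion, each was set against the surrounding array of its own labelled control set. The median over complement genes lay below that over coagulation genes in 14 of 14 FFPE lesions and in 16 of 19 frozen lesions. The exceptions were adenoma replicates 1 and 3, both of 1 rat, and nodule replicate 1. Complement medians ran from -0.74 to -0.14 in foci, -0.78 to -0.27 in FFPE adenomas, -0.38 to -0.19 in nodules, -0.92 to -0.35 in frozen adenomas, -1.04 to -0.56 in carcinomas and -0.99 to -0.43 in beta-catenin carcinomas. Coagulation medians ran from -0.55 to 0.16 in foci, -0.51 to -0.18 in FFPE adenomas, -0.30 to -0.07 in nodules, -0.84 to -0.27 in frozen adenomas, -0.58 to -0.32 in carcinomas and -0.60 to -0.35 in beta-catenin carcinomas. Lesions of 1 set share their control array, so these counts are not counts of independent animals.

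**Figure D4:**
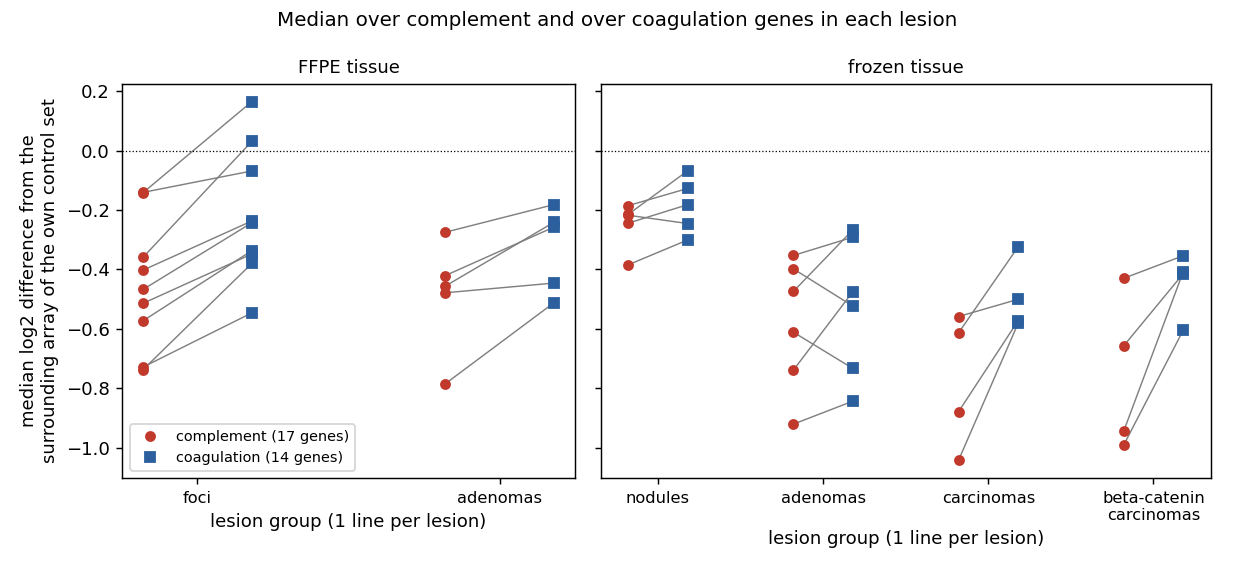
Median log2 difference from the surrounding array of the own control set (y axis) over 17 complement genes (circles) and 14 coagulation genes (squares), with 1 line per lesion, by lesion group (x axis) in FFPE (left) and frozen tissue (right). Lines rise to the right in 14 of 14 FFPE and 16 of 19 frozen lesions, and the adenoma circles and squares cover about the same range in frozen tissue.

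The genes that were lower in every lesion were C5, C6, C8a, C8g, C9, C4bpa and C4bpb among complement and F10 and Klkb1 among coagulation genes (19 of 19 frozen and 14 of 14 FFPE lesions each). How many of all genes were lower in every lesion was not counted, so nothing is read from the length of this list. The foci of 1 rat (replicates 4, 5 and 6) stood nearest to their surrounding array, with 9, 10 and 13 of 17 complement genes and 4, 8 and 6 of 14 coagulation genes lower. Without that rat, 12 genes were called in foci instead of 9 and 5 in FFPE adenomas instead of 7.

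None of the 33 genes was called by limma between frozen adenomas and nodules (0% of all genes, 18 of the 33 with an unadjusted p under 0.05), between carcinomas and adenomas (2.95% of all genes, 1 unadjusted), between beta-catenin carcinomas and other carcinomas (0% of all genes, 2 unadjusted) or between FFPE adenomas and foci (0% of all genes, 1 unadjusted). Frozen adenomas were lower than nodules in 29 of the 33 fitted values, the largest being C6 at -2.18 ± 0.48 (adjusted p = 0.0751). Only 1 rat gave both adenomas and nodules, and without the block 7 genes were called between them and 2 between carcinomas and adenomas. With array weights 16 were called between adenomas and nodules. Leaving out nodule replicate 4, adenoma replicate 2 or adenoma replicate 5 gave 1, 3 and 1 calls between adenomas and nodules. The shares of all genes called in these alternative fits were not counted, so nothing is read from these counts about the 33 genes. Among carcinomas, those with the beta-catenin label had the lower value for C6 (-0.93 ± 0.47), C5 (-0.58 ± 0.27) and C9 (-0.47 ± 0.25), without passing the test (adjusted p = 0.999, 0.949 and 0.999).

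The change in adenomas was more negative in frozen than in FFPE tissue for 27 of the 33 genes, but the difference between the fixations was called for none by limma (0.331% of all genes, 11 of the 33 with an unadjusted p under 0.05). The largest difference was that of C6, -1.61 ± 0.55 (adjusted p = 0.215). Fixation and microdissection came together, and the rats differed in part. Frozen adenomas came from rats 14 and 23 and FFPE adenomas from rats 7, 10 and 14, so these parts cannot be told apart. By title, frozen adenoma replicates 2 and 3 and FFPE replicates 3 and 4 (rat 14) may be pieces of the same tumours. The fit did not pair them, and the lesion counts above hold them in both fixations.

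The frozen carcinomas and the frozen adenomas have control sets of their own. Fitted with the control set as a block, 15 genes were called in frozen adenomas (5 complement and 10 coagulation, all among the 26), 10 in carcinomas (9 of them among the 15) and 19 in beta-catenin carcinomas (18 of them among the 21). Of all 14217 genes, the fit with this block called 2122, 904 and 1444 in these 3 groups, in either direction. With the rat as a block, 2194 were called higher and 1361 lower in frozen adenomas. The counts were 637 and 983 in carcinomas and 1101 and 1362 in beta-catenin carcinomas, so calls fell over all genes as well. With the control set as a block, C6 changed by -2.83, -2.70 and -3.68 in the 3 tumour groups (adjusted p = 0.00126, 0.00515 and 0.000459). C5 changed by -0.88 in frozen adenomas (adjusted p = 0.0508). All 11 calls lost in frozen adenomas were C5, C8g (adjusted p = 0.0563), C4bpa (0.0730), Serping1 (0.0894), C1s (0.131), Mbl1 (0.0772), Masp2 (0.0732), F12 (0.0635), Serpinf2 (0.108), Cpb2 (0.123) and Vtn (0.0550). Those lost in carcinomas were F2 (0.0546), F10 (0.0565), Klkb1 (0.0517), C8b (0.0689), C9 (0.0506) and Vtn (0.0524), and Serping1 was called there in this fit (-0.61, adjusted p = 0.0453). In beta-catenin carcinomas F2 (0.0734), F12 (0.116) and Serpind1 (0.0886) were lost, and Serpinf2 was called (-0.72, adjusted p = 0.0439). Each call lost kept its negative sign. Surrounding arrays of the carcinoma sets (n = 3) differed from the others (n = 4) in 5.27% of all genes by limma and in 0 of the 33 genes.

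Other genes of the same systems and the marker lists are read against the background. Over all genes the shares called lower were 1.36% in foci, 0.872% in FFPE adenomas, 0.0352% in nodules, 9.57% in frozen adenomas, 6.91% in carcinomas and 9.58% in beta-catenin carcinomas, and those called higher were 1.81%, 1.29%, 0.19%, 15.4%, 4.48% and 7.74%. Of 17 other complement genes measured, 3 were lower and 1 higher in foci, 0 lower and 1 higher in FFPE adenomas, 3 lower and 1 higher in frozen adenomas, 3 lower in carcinomas, 6 lower in beta-catenin carcinomas and none was called in nodules (5 with an unadjusted p under 0.05, limma). Fcna, a ficolin made by liver macrophages, changed by -1.35 ± 0.26 in foci, -1.09 ± 0.22 in frozen adenomas, -1.52 ± 0.24 in carcinomas and -1.65 ± 0.23 in beta-catenin carcinomas. Colec11, a collectin of the lectin pathway, fell by 0.82, 0.86 and 1.11 on the log2 scale in the 3 frozen tumour groups. Clu, clusterin, an inhibitor of the terminal pathway, was higher in foci and FFPE adenomas (0.43 ± 0.09 and 0.45 ± 0.10), and the membrane regulator Cd55 was higher in frozen adenomas (0.68 ± 0.21). In beta-catenin carcinomas Cfd, the factor D of the alternative pathway, was lower (-1.19 ± 0.23).

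Of 29 other clotting genes, 2 were lower in foci, 1 in FFPE adenomas, 3 in frozen adenomas, 5 in carcinomas and 5 in beta-catenin carcinomas, and 4 were higher in frozen adenomas and 3 in beta-catenin carcinomas. The fibrinogen chains Fga, Fgb and Fgg fell by 0.69, 0.90 and 0.62 on the log2 scale in carcinomas and by 1.04, 1.32 and 1.01 in beta-catenin carcinomas. In frozen adenomas the counts in both directions were close to the background, and nothing is read from them about clotting genes. The genes called higher included Procr, the receptor of protein C (0.89 ± 0.24 in frozen adenomas and 1.82 ± 0.25 in beta-catenin carcinomas), Plat, tissue plasminogen activator (1.28 ± 0.34 and 1.16 ± 0.35), and F2r, a thrombin receptor (1.20 ± 0.21 and 0.80 ± 0.21). Of the 3 vitamin K cycle genes, Vkorc1l1 was lower in beta-catenin carcinomas (-0.57 ± 0.18) and no other was called in the 6 comparisons.

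Among 18 measured transcription factors and cytokine signalling genes known to act on such promoters, 3 were lower in foci, 2 in FFPE adenomas, 0 in nodules (5 with an unadjusted p under 0.05, limma), 11 in frozen adenomas and 6 in each carcinoma group, against the shares of all genes called lower given above (9.57% in frozen adenomas). Onecut1, a hepatocyte factor also called HNF6, was lower in all 5 groups with a call, with changes of -1.11 ± 0.25 in foci, -1.39 ± 0.28 in FFPE adenomas, -1.60 ± 0.41 in frozen adenomas, -2.81 ± 0.44 in carcinomas and -2.45 ± 0.42 in beta-catenin carcinomas. Cebpa and Cebpb, which encode C/EBP factors, were lower in frozen adenomas (-1.48 ± 0.26 and -0.70 ± 0.12, adjusted p = 0.000434 and 0.000226). In carcinomas their changes of -0.49 and -0.14 did not pass (adjusted p = 0.297 and 0.536). Il6r, the interleukin-6 receptor of the acute-phase response, was lower in the 3 frozen tumour groups (-0.75 ± 0.22, -1.22 ± 0.24 and -1.48 ± 0.23), and Stat3 was higher in frozen adenomas (0.67 ± 0.17). Hnf4a changed by -0.24 ± 0.08 in frozen adenomas (adjusted p = 0.0414).

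Markers of the cell types were counted in the same way. Of 10 hepatocyte markers, 2 were called lower in foci, 1 in FFPE adenomas, 6 in frozen adenomas, 2 in carcinomas and 3 in beta-catenin carcinomas, while Apoa1 was higher in foci and in both adenoma groups. Their mean level per array was 12.63 to 13.22 in frozen adenomas, 12.92 to 13.01 in carcinomas and 12.49 to 13.19 in beta-catenin carcinomas, below or at the lower end of surrounding liver, and the largest change of Alb in a frozen group was -0.07 in beta-catenin carcinomas (adjusted p = 0.384). Of 10 macrophage markers, 3 were lower in foci, 4 in frozen adenomas, 5 in carcinomas and 7 in beta-catenin carcinomas, with mean levels of 8.95 to 9.47 in frozen surrounding liver and 7.78 to 8.55 in beta-catenin carcinomas. The lists overlap, since C1qa, C1qb and C1qc are listed both as macrophage markers and as other complement genes. Serpina1 and Vwf are listed both as markers and as other clotting genes. The counts of these lists are therefore not separate. The cholangiocyte markers Krt19 and Epcam were higher in both adenoma groups (4.37 ± 1.02 and 1.40 ± 0.28 in frozen tissue), their list averaging 6.46 to 9.21 in frozen adenomas against 5.39 to 6.18 in surrounding liver. This list averaged 6.03 to 8.47 in nodules, 5.24 to 6.46 in carcinomas and 5.18 to 8.35 in beta-catenin carcinomas. In FFPE tissue it averaged 5.36 to 6.64 in foci and 5.86 to 6.56 in adenomas, against 5.09 to 5.38 in surrounding liver. The stellate and fibroblast list held 3 higher genes in each FFPE group and 2, 1 and 2 in frozen adenomas, carcinomas and beta-catenin carcinomas, and 1 lower gene in each carcinoma group. The 2 of 12 in frozen adenomas is about the share of all genes called higher (15.4%). Of 7 endothelial markers, Kdr was lower in beta-catenin carcinomas, of 7 lymphocyte markers, Nkg7 was lower in frozen adenomas, and of 4 neutrophil and blood markers, Hbb was lower in frozen adenomas and beta-catenin carcinomas and Alas2 in frozen adenomas. No marker is at 0 on an array of log2 signals, and the part of these cell types in the fall of complement and coagulation genes was not tested.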

How the data were processed

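Per the labels' protocols, RNA of frozen tissue was isolated with TRIzol and a miRNeasy kit and RNA of laser-microdissected FFPE tissue with an RNeasy kit for fixed tissue. The authors deposited log2 probe set values (31042 probe sets), used here as they are. How they were normalized is not stated in the labels. Probe sets with 1 symbol (20826) were kept, and those with several (436) or no symbol (9780) left out.

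Frozen (26 arrays, 5 rats) and FFPE (18 arrays, 4 rats) tissue entered separate fits in limma 3.58.1 under R 4.3.3, with group and rat as terms and an intensity trend (17 and 12 residual degrees of freedom), and jointly for the difference between fixations. Tests are two-sided. The 3 arrays named C43 normal have contradictory labels and entered no comparison. Lesions are paired with surrounding liver through the rat they share. Deviations from group means correlated with a median r of 0.127 within and -0.025 between rats in frozen tissue and 0.11 and -0.0395 in FFPE tissue.

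Array values are given for up to 3 called complement and 3 called coagulation genes with the largest changes per comparison. They are also given for further genes chosen for their role. Larger groups are given by their range, mostly with the median, and not every group is given for each gene. The genes, lists and markers were chosen with earlier results of these data known. On simulated data with 14217 genes, the fit recovered 40% of 100 genes changed by 1 on the log2 scale in foci and 88% in frozen adenomas. Alternatives were other blocks, normalizations, probe set rules, filters, array weights, group subsets, 2 other assignments of genes to the lists and leaving out single arrays.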

Additional observations from a re-analysis of the deposited data

Results flagged for a closer look

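In 3 of 104 groups of values tested, 1 array lay far from the others of its group by Dixon's criterion, which chance alone does in about 1 in 20 groups. C4bpb was 9.40 in carcinoma replicate 3, with the nearest other carcinoma at 10.61. Mbl2 was 7.99 in frozen adenoma replicate 3, with the nearest other adenoma at 10.16. C4bpb was 9.56 in FFPE focus replicate 1, with the nearest other focus at 10.49. All 3 are low values. No difference between frozen and FFPE adenomas in the change of a member passed the test.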

How the results depend on the processing

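No called gene named for its array values changed direction in the alternatives run, and the gap between complement and coagulation medians changed sign in frozen adenomas only. Genes called in foci numbered 3 without the replicate block, 4 with a random block and 3 without the intensity trend. In FFPE adenomas they numbered 1 without the replicate block, 4 with centred arrays, 4 with the mean of probe sets, 2 without the trend and 4 without the array with conflicting labels. In frozen adenomas they numbered 15 with the control set as block and 10 with only the compared groups fitted, where C4bpb, Mbl2 and Hrg were not called. In carcinomas they numbered 23 with a random block, 23 among genes above the median level, 25 with array weights and 23 with only the compared groups. In nodules they numbered 2 with only the compared groups. Between adenomas and nodules 7 were called without the block, 4 with a random block and 16 with array weights, and between carcinomas and adenomas 2 and 2 without and with a random block. With 1 array left out at a time, the counts ran from 3 to 9 in foci, 3 to 7 in FFPE adenomas, 20 to 28 in frozen adenomas, 7 to 21 in carcinomas, 17 to 25 in beta-catenin carcinomas and 0 to 3 between adenomas and nodules. Among the alternatives, the share of all genes called was counted only with the control set as block, and the causes were not tested.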

Other observations

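The 3 arrays named C43 normal belong to no comparison. The 2 frozen ones had C6 at 9.19 and 9.02, C5 at 11.68 and 11.69, C4bpb at 11.94 and 11.99, Mbl2 at 12.03 and 12.08, and F9 at 12.82 and 12.80. The FFPE one had C6 at 10.53, C5 at 11.13, C4bpb at 11.67, Mbl2 at 12.03 and F9 at 12.87.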
